A study of Mus musculus with 8 samples.

Results

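The genes described here are the nuclear genes for the subunits of the mitochondrial oxidative phosphorylation complexes, measured by RNA-seq in 8 mouse liver libraries. They were chosen by symbol alone, as every row of the count table whose symbol starts with Nduf and a subunit letter and number, with Uqcr, with Cox and a number of 4 to 8 or with Atp5, or that is Sdha, Sdhb, Sdhc or Sdhd. This gave 85 of 22946 rows, of which 81 were subunit genes: 35 of complex I, 4 of complex II, 8 of complex III, 19 of complex IV and 15 of complex V. The other 4 rows matched by symbol and were not counted as subunits. Cox4nb, Atp5s and Atp5sl carry older names of Emc8, Dmac2l and Dmac2, and Cox7a2l is a factor that joins complexes into supercomplexes. Ndufa4 and its relative Ndufa4l2 were counted with complex IV, where the Ndufa4 protein was found to reside. Of the 85 rows, 79 passed the filter on low counts, and 75 of these were subunit genes. The 6 rows that failed it are Cox4i2, Cox6a2, Cox6b2, Cox7b2, Cox8b and Cox8c, forms of complex IV subunits known from other tissues.

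The livers came from C57 Black mice that were put on their diet at 8 weeks of age and fed it for 8 weeks. The 4 groups were MLL4 het livers on HFD (libraries 7 and 8), MLL4 het livers on chow (libraries 3 and 4), wild-type livers on HFD (libraries 5 and 6) and wild-type livers on chow (libraries 1 and 2), where HFD is a high fat diet and MLL4 is a histone methyltransferase encoded by Kmt2d. The labels do not describe the mutant allele, the sex of the mice or whether a library is 1 mouse, so each p-value covers the spread between libraries, which may be technical. The study asked which responses of the liver to HFD are weaker in MLL4 het mice.

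Oxidative phosphorylation makes most of the ATP of a liver cell. Complex I takes electrons from NADH and complex II from succinate, complex III passes them from ubiquinol to cytochrome c, and complex IV gives them to oxygen. Complexes I, III and IV pump protons across the inner membrane, and complex V, the ATP synthase, uses the proton gradient to make ATP. All subunits of complex II and most subunits of the others are encoded in the nucleus. The subunits encoded by mitochondrial DNA were not analysed here.

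Library totals ran from 14142884 to 18928676 counts. The gene of the genotype label, Kmt2d, is listed under its older symbol Mll2 and stood at 62.7 and 75.3 CPM (counts scaled to library size) in MLL4 het HFD, 59.9 and 72.0 CPM in MLL4 het chow, 63.3 and 64.6 CPM in wild-type HFD and 61.2 and 69.6 CPM in wild-type chow libraries. Its RNA thus overlapped between the genotypes, and its log2 difference between them averaged over diets was 0.06 ± 0.09 (SE, edgeR quasi-likelihood test with Benjamini-Hochberg adjustment, adjusted p = 0.747), so the genotype rests on the labels. CPM values here are scaled with TMM factors. The 4 hepatocyte markers summed to 64122 and 62255 CPM in MLL4 het HFD, 76397 and 72358 CPM in MLL4 het chow, 65162 and 64556 CPM in wild-type HFD and 78123 and 73321 CPM in wild-type chow libraries. All 4 HFD libraries thus lay below all 4 chow libraries in this sum, most of which was Alb. Alb and Serpina1a each moved this way, but the other markers did not all follow. Apoa1 was higher on HFD in MLL4 het livers, at 6014 and 7081 CPM against 4217 and 5139 CPM on chow. In wild-type livers it was lower, at 5094 and 5416 CPM against 5993 and 6273 CPM. Ttr overlapped between the diets in both genotypes. The part of these markers in the diet comparisons was not tested. Of 5 skeletal muscle markers, Ckm, Acta1 and Mb were at 0 counts in all 8 libraries. The 6 macrophage markers summed to 138.5 and 91.3 CPM in MLL4 het HFD, 239 and 207 CPM in MLL4 het chow, 85.7 and 87.3 CPM in wild-type HFD and 98.4 and 90.6 CPM in wild-type chow libraries. In such bulk samples, fewer hepatocytes and less RNA per hepatocyte cannot be told apart.

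The 81 subunit genes together took about 1% of all counts. Their share was 0.973% and 1.02% in MLL4 het HFD, 0.932% and 1.03% in MLL4 het chow, 1.08% and 1.05% in wild-type HFD and 1.09% and 1.08% in wild-type chow libraries. Library 3 of the MLL4 het chow group was the lowest and the 4 wild-type libraries were the highest. Complex V made the largest contribution, with summed levels of 3758 and 3902 CPM in MLL4 het HFD, 3691 and 3953 CPM in MLL4 het chow, 3979.9 and 4076 CPM in wild-type HFD and 4106 and 4190.3 CPM in wild-type chow libraries. The 35 complex I genes summed to less, at 2354 and 2479 CPM in MLL4 het HFD, 2177 and 2418 CPM in MLL4 het chow, 2490.3 and 2572 CPM in wild-type HFD and 2476 and 2566 CPM in wild-type chow libraries. Complex II rested on 4 genes and summed to between 979 and 1157 CPM over the 8 libraries.

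Levels per length, given as CPM per kb of mRNA and averaged over the 8 libraries, were lowest at the median in complex I and highest in complex IV. Of the 75 tested subunit genes, 67 were compared per length. Left out were 6 without a comparable length and the low-count complex IV genes Cox7a1 and Ndufa4l2, at 1.76 and 0.80 CPM per kb. The median was 73.6 CPM per kb over 30 complex I genes, 148 over 4 complex II genes, 143 over 8 complex III genes, 236 over 11 complex IV genes and 177 over 14 complex V genes. The highest level was that of Atp5b, the catalytic beta subunit of the synthase, at 573 CPM per kb. It was followed by Atp5g3, 1 of the 3 genes that encode the same proton-carrying c subunit, at 490.4 CPM per kb. Ndufa4 at 372, Atp5a1 (the alpha subunit) at 361, Cox4i1 at 360.3 and Cox6a1 at 356 CPM per kb came next, and these 4 lay close together. Within complex I the levels ran between 31.2 CPM per kb for Ndufs4, an accessory subunit of the NADH-binding arm, and 223 CPM per kb for Ndufb9, of the membrane arm. Ndufs1 and Ndufv1, which carry iron-sulphur clusters and the flavin that accepts electrons from NADH, stood at 47.3 and 81.8 CPM per kb. The 4 complex II genes were unequal as well: the flavoprotein Sdha stood at 195, the iron-sulphur protein Sdhb at 155, and the membrane anchors Sdhd and Sdhc at 140.3 and 43.0 CPM per kb. In complex III the core proteins Uqcrc1 and Uqcrc2 and the Rieske iron-sulphur protein Uqcrfs1 stood within a narrow span, at 130.2, 129 and 118 CPM per kb. Gene models of a later annotation than that of the counts gave the lengths, and 10 of the 85 genes have pseudogene copies of at least 95% identity over at least 50% of the mRNA, among them Atp5l with 8 copies and Atp5h and Uqcrb with 3 copies each, so the levels of those genes are uncertain. The exons of 24 of the 85 genes overlap those of another gene, among them Ndufa13 with Tssk6 and Ndufs6 with Mrpl36, both on opposite strands. Whether reads were counted by strand is not known, so the reads of such pairs may not be fully told apart.

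**Figure D1:**
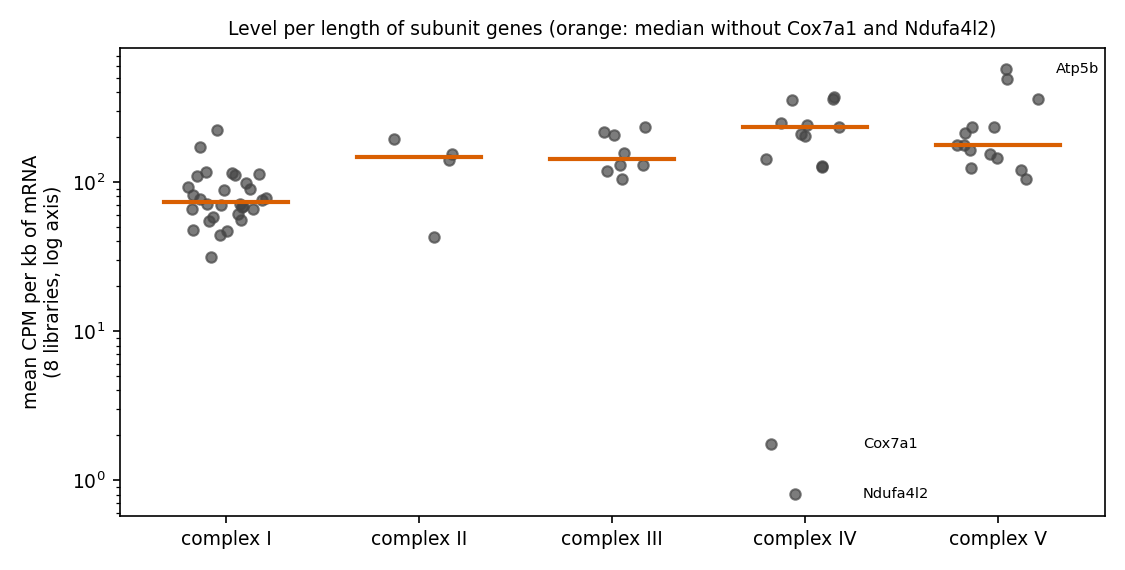
Each point is a tested subunit gene, placed by its complex on the x axis and by its mean level over 8 libraries in CPM per kb of mRNA on a log y axis, and the orange line is the median of the complex without Cox7a1 and Ndufa4l2. Complex I lies lowest, with a median of 73.6, and Cox7a1 and Ndufa4l2 lie far below the other complex IV genes.

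Complex IV has subunit forms known from particular tissues, and the liver libraries held almost none of the others. Cox4i2, a form of Cox4 best known from lung, had 7 counts in all libraries together, or 0.0195% of the Cox4i1 and Cox4i2 counts (exact 95% binomial interval 0.00783 to 0.0401%). The heart and muscle forms Cox6a2 and Cox8b had 4 and 2 counts in all, 0.0150% and 0.0118% of the counts of their pairs with Cox6a1 and Cox8a. Cox7a1, the heart and muscle form paired with the liver form Cox7a2, reached 0.707% (0.567 to 0.872%). It stood at 0.268 and 1.42 CPM in MLL4 het HFD, 0.425 and 0.952 CPM in MLL4 het chow, 0.750 and 0.492 CPM in wild-type HFD and 0.882 and 0.348 CPM in wild-type chow libraries, with overlap between all groups. Cox6b2, a testis form, made up 0.102% of its pair with Cox6b1. Cox7b2 and Cox8c, also testis forms, had 0 counts everywhere, which allows up to between 0.161 and 0.213 CPM in a library (3 counts of its total). These intervals and limits cover counting error only.

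Across the 4 groups the subunit genes varied little. Among the 73 subunit genes that averaged 20 CPM or more, the highest library exceeded the lowest 1.23-fold at the median and 1.58-fold at most. The same median over 5141 tested rows of that level was 1.33-fold. Of 75 tested subunit genes, the edgeR test called 0 for HFD against chow in MLL4 het livers, 0 for HFD against chow in wild-type livers, 0 for MLL4 het against wild-type on HFD and 0 on chow, at an adjusted p under 0.05. The same tests called 3.02%, 4.59%, 0.445% and 0.516% of all 12593 tested rows. At an unadjusted p under 0.05 the counts of subunit genes were 5 higher and 0 lower with HFD in MLL4 het livers, 1 higher and 0 lower with HFD in wild-type livers, 0 higher and 5 lower in MLL4 het livers on HFD, and 0 higher and 11 lower in MLL4 het livers on chow. Over all 12593 tested rows, the diet counts were 1138 higher and 1150 lower in MLL4 het, and 1302 higher and 1105 lower in wild-type livers. The genotype counts were 737 higher and 998 lower on HFD, and 1020 higher and 912 lower on chow. DESeq2 called 0 members in each of these 4 comparisons as well.

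For nearly all subunit genes the intervals of this fit stayed within 1.5-fold. They cover only the spread between libraries, which may be technical. The 95% interval of the fold change lay wholly within 1.5-fold in either direction for 72 of 75 subunit genes for HFD against chow in MLL4 het and for 72 in wild-type livers. It did so for 73 genes for MLL4 het against wild-type on HFD and for 72 on chow. Those outside were the low-count genes Cox7a1 and Ndufa4l2 throughout, Ndufa8 in both diet comparisons and Cox7a2 in the genotype comparison on chow.

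**Figure D2:**
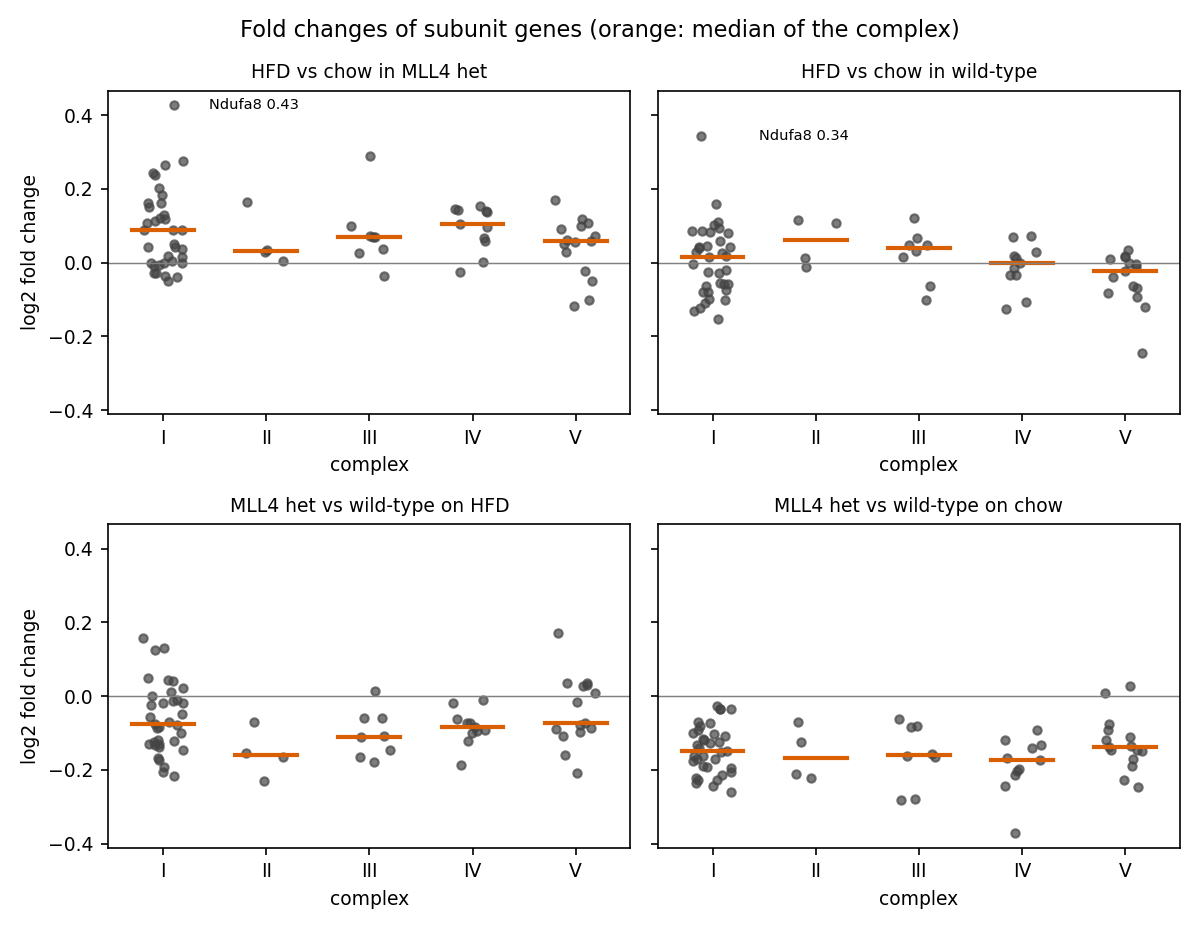
Each point is the log2 fold change (y axis) of a tested subunit gene of complex I to V (x axis) in 1 of 4 comparisons, and the orange line is the median of all tested genes of the complex. Cox7a1 and Ndufa4l2, whose counts are low, enter the medians but are not drawn, and Ndufa8 stands highest in both diet panels, at 0.43 in MLL4 het and 0.34 in wild-type livers.

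Averaged over the 2 genotypes, HFD against chow called 1 of the 79 tested members, against 10.4% of all tested rows, and DESeq2 also called 1. The called gene was Ndufa8, an accessory subunit at the membrane arm of complex I that belongs to the cysteine-rich proteins folded in the intermembrane space. It stood at 65.3 and 70.4 CPM in MLL4 het HFD against 45.3 and 55.6 CPM in MLL4 het chow libraries, and at 70.8 and 70.4 CPM in wild-type HFD against 53.1 and 58.1 CPM in wild-type chow libraries. All 4 HFD libraries thus lay above all 4 chow libraries. No other subunit gene did this, whereas 7.19% of all tested rows did. Ndufa8 was 1.31-fold higher with HFD (log2 0.38 ± 0.08, SE, 95% interval 0.21 to 0.56, adjusted p = 0.0172). Within a genotype it did not pass, with a log2 difference of 0.43 ± 0.11 in MLL4 het (adjusted p = 0.0832) and 0.34 ± 0.11 in wild-type livers (adjusted p = 0.129). The call also depends on single libraries. Without library 1, 5 or 6 the smallest adjusted p of any member was 0.0997, 0.0681 or 0.0594, while the log2 difference of Ndufa8 stayed at 0.34, 0.37 and 0.39. Its exons overlap no other annotated gene and it has no near-identical copy. Its promoter is shown because it is the called gene: 300 bases from RefSeq, read on the minus strand of GRCm38.p6 at chr2:36049289-36049588, from 250 bases before to 50 after the annotated start, with a match to the core recognised by nuclear respiratory factor 1 (NRF1) in capitals. The counts were made on the older build mm9.
Ndufa8 promoter: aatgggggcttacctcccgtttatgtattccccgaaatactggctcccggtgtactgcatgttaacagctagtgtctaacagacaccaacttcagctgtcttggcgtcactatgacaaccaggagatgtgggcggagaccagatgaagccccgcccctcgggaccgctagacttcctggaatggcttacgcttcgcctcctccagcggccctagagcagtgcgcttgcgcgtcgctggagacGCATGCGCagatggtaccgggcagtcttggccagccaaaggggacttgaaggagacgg
The NRF1 core, GCATGCGC, starts 8 bases before the annotated start. A match of letters is not a binding site.

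At the other end, Atp5b was the subunit gene whose 4 HFD libraries all lay below the 4 chow libraries, as did those of 5.88% of all tested rows. Its level was 1018 and 1036 CPM in MLL4 het HFD against 1095 and 1132 CPM in MLL4 het chow libraries, and 1079 and 1081 CPM in wild-type HFD against 1168 and 1179 CPM in wild-type chow libraries. The log2 difference between the diets was -0.12 ± 0.06 and did not pass (edgeR, adjusted p = 0.234). Atp5g1, another c subunit gene, had a log2 difference of -0.17 ± 0.08 (adjusted p = 0.213). Uqcrq, a small subunit of complex III next to cytochrome b, had one of 0.18 ± 0.06 (adjusted p = 0.122).

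In MLL4 het livers, the subunit genes tended to stand a little higher with HFD than with chow. The median log2 difference was 0.07, and 59 of 75 estimates were above 0, beside a median of -0.0061 over all tested rows. By complex the medians were 0.09 for complex I (25 of 35 above 0), 0.03 for complex II (4 of 4), 0.07 for complex III (7 of 8), 0.11 for complex IV (12 of 13) and 0.06 for complex V (11 of 15). Both HFD libraries lay above both chow libraries for 22 of 75 subunit genes and below them for 1, Atp5b, beside 22.3% and 22.4% of all tested rows. Ndufa8 had the smallest p here, and Uqcrq followed with 161 and 168 CPM in MLL4 het HFD against 127 and 142 CPM in MLL4 het chow libraries. Those groups did not overlap, yet the log2 difference of 0.29 ± 0.09 did not pass (edgeR, adjusted p = 0.133). Ndufa13, an accessory subunit also known as GRIM-19, stood at 82.0 and 86.7 CPM in MLL4 het HFD against 69.2 and 73.9 CPM in MLL4 het chow libraries, and its log2 difference of 0.24 did not pass either (adjusted p = 0.192). This tendency rests on library 3: without it, the median over the subunit genes was -0.00045.

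In wild-type livers, no such tendency was seen. The median log2 difference between HFD and chow was -0.0014, with 37 of 75 estimates above 0 and a median of 0.02 over all tested rows. The complex medians were 0.02 for complex I, 0.06 for complex II, 0.04 for complex III, -0.0017 for complex IV and -0.02 for complex V, in which 4 of 15 estimates were above 0. Both HFD libraries lay above both chow libraries for 14 subunit genes and below them for 16, beside 30.6% and 25.2% of all tested rows. Besides Ndufa8, the smallest p belonged to Atp5g1, at 102 and 105 CPM in wild-type HFD against 122 and 124 CPM in wild-type chow libraries, with a log2 difference of -0.24 ± 0.11 that did not pass (edgeR, adjusted p = 0.277). Cox4i1, the common form of the complex IV subunit that binds ATP, stood at 267 and 276 CPM in wild-type HFD against 302 and 283 CPM in wild-type chow libraries (log2 -0.11, adjusted p = 0.562).

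The comparison of genotypes gave the widest shift of the subunit genes as a group, and it was small. On chow, the median log2 difference of MLL4 het from wild-type livers was -0.15, and 72 of 75 estimates were below 0, beside 5983 of 12593 for all tested rows with a median of 0.01. Among the tested rows that averaged 20 CPM or more, 2989 of 5141 were below 0, with a median of -0.03. All 35 complex I, 4 complex II and 8 complex III genes were below 0, with medians of -0.15, -0.17 and -0.16. So were 12 of 13 complex IV genes (median -0.17) and 13 of 15 complex V genes (median -0.14). Both MLL4 het chow libraries lay below both wild-type chow libraries for 52 of 75 subunit genes and above them for 0, beside 21.9% and 24% of all tested rows. On HFD the median was -0.08, with 59 of 75 estimates below 0, and it was -0.039 without library 7 and -0.12 without library 8. Both MLL4 het HFD libraries lay below both wild-type HFD libraries for 35 subunit genes and above them for 4 (Atp5g1, Ndufa11, Ndufs7 and Ndufv3), beside 24.3% and 22.8% of all tested rows. The complex medians on HFD were -0.07 for complex I, -0.16 for complex II, -0.11 for complex III, -0.08 for complex IV and -0.07 for complex V. The comparisons on chow and on HFD share no library, while the diet comparison in MLL4 het livers and the genotype comparison on chow share the 2 MLL4 het chow libraries.

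Much of the difference on chow lay in 1 library. Library 3 had the lowest level of all 8 for 55 of 75 subunit genes (73.3%), against 18.7% of all tested rows. When each gene was centred on its mean log2(CPM + 1) over the libraries, the median of the subunit genes was -0.05 and 0.03 in MLL4 het HFD, -0.18 and -0.02 in MLL4 het chow, 0.03 and 0.08 in wild-type HFD and 0.03 and 0.09 in wild-type chow libraries. The SD of these library medians within groups was 0.067, close to the median difference on HFD. Without library 3 the median log2 difference on chow was -0.087, and without library 4 it was -0.24. The 2 MLL4 het chow libraries also had the highest macrophage marker sums, at 239 CPM in library 3 and 207 CPM in library 4. Library 3 was also highest in the endothelial marker sum, at 136.8 CPM against 89.3 to 119.9 CPM in the other libraries. The same held for the stellate marker sum, at 190.0 CPM against 117.1 to 163.5 CPM, although the stellate markers Lrat and Col1a1 were not highest there. The 5 erythroid markers stood in 3 rows of the table, since the alpha globin genes share a row and so do the beta globin genes, and these rows summed to 350 and 371 CPM in MLL4 het HFD, 240 and 253 CPM in MLL4 het chow, 828 and 653 CPM in wild-type HFD and 320.1 and 258 CPM in wild-type chow libraries. The sum was lower in every MLL4 het than in every wild-type library of the same diet, and the gap was wider on HFD. On chow, however, both globin rows overlapped between the genotypes. The alpha globin row stood at 116 and 134 CPM in MLL4 het chow against 145 and 99.1 CPM in wild-type chow libraries. The beta globin row stood at 51.6 and 54.7 CPM against 56.5 and 38.9 CPM. Alas2, the erythroid enzyme of haem synthesis, stood at 69.9 and 61.2 CPM in MLL4 het HFD, 72.0 and 63.8 CPM in MLL4 het chow, 140.2 and 141.8 CPM in wild-type HFD and 119 and 119.5 CPM in wild-type chow libraries. The part of these marker lists in the genotype comparisons was not tested.

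**Figure D3:**
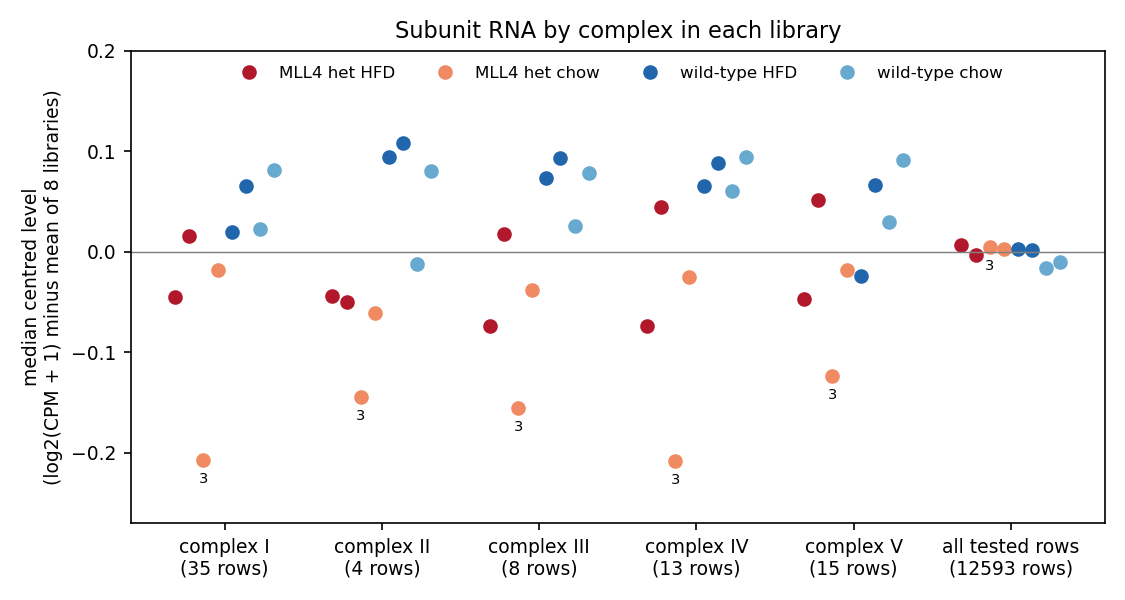
Each point is 1 library, and its y value is the median over the tested genes of a complex (x axis) of log2(CPM + 1) minus the gene's mean over the 8 libraries. Library 3 of the MLL4 het chow group, marked 3, is the lowest point of every complex, between -0.21 and -0.12, while all 12593 tested rows sit near 0 in each library.

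In the genotype comparison on chow, short messages as a class moved in the same direction. Subunit mRNAs are short, and 66 of the 75 tested genes fell in the shortest of 4 equal length classes of tested rows, under 1888 nt. Over all tested rows with a length, the median log2 difference of MLL4 het from wild-type on chow was -0.06 in the shortest class, -0.0065 in the second, 0.04 in the third and 0.07 in the longest class. For HFD against chow in MLL4 het livers the medians ran the other way, at 0.04, 0.0086, -0.01 and -0.06. The median of the subunit genes on chow, -0.15, lay beyond that of the shortest class. From the shortest to the longest class, the medians for MLL4 het against wild-type on HFD were -0.00044, -0.01, -0.0035 and 0.02. For HFD against chow in wild-type livers they were 0.01, 0.04, 0.04 and 0.0076. The genes for cytosolic ribosomal proteins, also short, had a median log2 difference of -0.09 for MLL4 het against wild-type on chow and of 0.16 on HFD, where the subunit genes stood at -0.08. Among 69 subunit genes of comparable length, the Spearman correlation of log2 difference with mRNA length was 0.29 for MLL4 het against wild-type on chow and -0.16 on HFD. For HFD against chow it was -0.36 in MLL4 het and 0.07 in wild-type livers. The part of message length in these results was not tested.

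Averaged over diets, MLL4 het against wild-type called 0 of the 79 tested members by edgeR and by DESeq2, against 3.24% of all tested rows. At an unadjusted p under 0.05, 0 of 75 subunit genes were higher and 22 were lower, beside 1277 higher and 1292 lower of all 12593 tested rows. For 18 of 75 subunit genes all 4 MLL4 het libraries lay below all 4 wild-type libraries and for 0 they lay above, beside 4.24% and 4.11% of all tested rows. These 18 came from every complex, and among them were Ndufb8 and Ndufs6 of complex I, Sdha and Sdhc of complex II, Uqcrc1 and Uqcrc2 of complex III, Cox6a1, Cox7a2 and Cox8a of complex IV, and Atp5a1, Atp5c1 and Atp5g3 of complex V. The median over all 75 was -0.12, and no estimate apart from that of Ndufa4l2 was below -0.28.

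Atp5g3 had the smallest p of all members in that average. It stood at 327 and 338 CPM in MLL4 het HFD against 384 and 385 CPM in wild-type HFD libraries, and at 307 and 335 CPM in MLL4 het chow against 385 and 377 CPM in wild-type chow libraries. The groups did not overlap on either diet, and the wild-type libraries were closely alike. The log2 difference averaged over diets was -0.23 ± 0.06 (edgeR, adjusted p = 0.0683), so it did not pass. Ndufa4l2, a relative of Ndufa4 known to be induced in hypoxia, had a difference of -1.02 ± 0.28 (adjusted p = 0.0817). Its levels were 0.375 and 0.640 CPM in MLL4 het HFD, 0.496 and 0.476 CPM in MLL4 het chow, 0.808 and 1.09 CPM in wild-type HFD and 1.01 and 1.10 CPM in wild-type chow libraries. The groups did not overlap between genotypes, but the gene rests on 99 counts in all libraries, and its exons overlap those of Shmt2 on the other strand by 32 bases.

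Among the larger complexes, the accessory subunits Ndufs6 and Ndufb8 of complex I differed by -0.21 (adjusted p = 0.121) and -0.18 (adjusted p = 0.143). Ndufs6 stood at 46.5 and 50.1 CPM in MLL4 het HFD against 56.1 and 55.3 CPM in wild-type HFD libraries, and at 43.0 and 47.9 CPM in MLL4 het chow against 50.4 and 54.9 CPM in wild-type chow libraries. In complex II, Sdhc differed by -0.19 ± 0.06 (adjusted p = 0.113), with 128 and 130.3 CPM in MLL4 het HFD against 145 and 144 CPM in wild-type HFD libraries, and 119 and 133 CPM in MLL4 het chow against 146 and 146 CPM in wild-type chow libraries. Neither gene overlapped between genotypes on either diet, and neither passed. Sdha stood at 555 and 511 CPM in MLL4 het HFD against 647 and 602 CPM in wild-type HFD libraries, and at 548 and 513 CPM in MLL4 het chow against 568 and 590.2 CPM in wild-type chow libraries (log2 averaged over diets -0.18, adjusted p = 0.156). Cox7a2, the liver form of its complex IV subunit, varied more. Its levels were 80.8 and 91.4 CPM in MLL4 het HFD, 69.3 and 95.9 CPM in MLL4 het chow, 98.7 and 97.3 CPM in wild-type HFD and 109.9 and 104 CPM in wild-type chow libraries, and library 3 held the lowest. Its log2 difference averaged over diets was -0.28 ± 0.10 (adjusted p = 0.158), and it was -0.17 without library 3 and -0.41 without library 4. Uqcrq differed by -0.28 on chow (adjusted p = 0.198) and by -0.06 on HFD (adjusted p = 0.830).

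**Figure D4:**
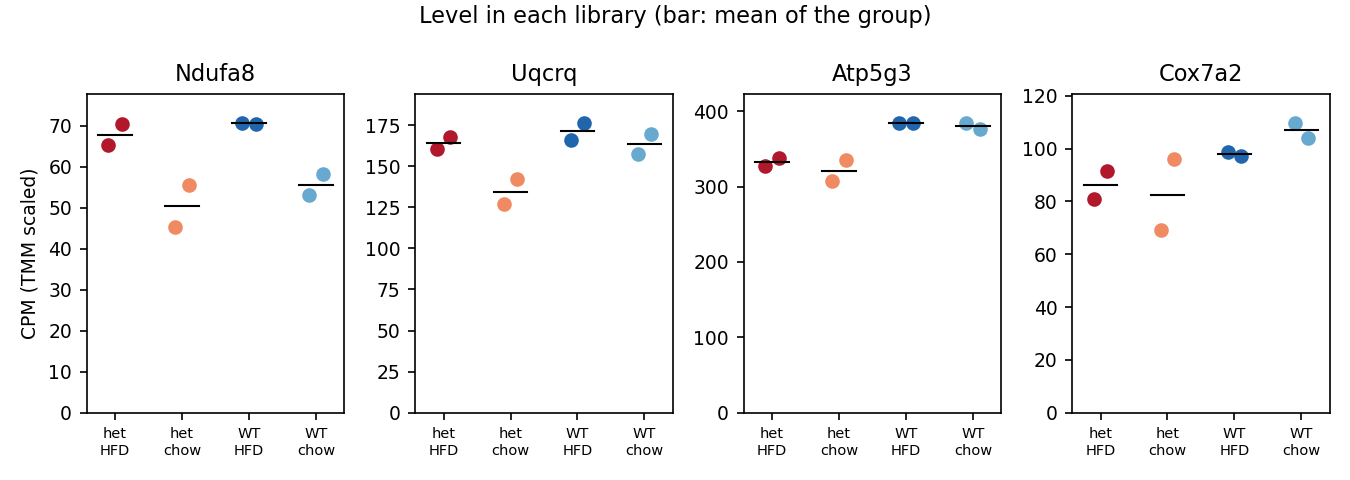
Level in CPM (y axis, from 0) of 4 subunit genes in each library of the 4 groups (x axis, het for MLL4 het and WT for wild-type), with the group mean as a bar. Ndufa8 separates the HFD from the chow groups, Atp5g3 and Cox7a2 lie lower in the MLL4 het libraries, and Uqcrq is lowest in the 2 MLL4 het chow libraries.

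Without library 4, 4 members passed for MLL4 het against wild-type averaged over diets: Atp5g3, Cox7a2, Sdhc and Uqcr11. Without library 3 none passed. Among core subunits, averaged over diets, the log2 difference was -0.06 for Ndufv1, -0.15 for Sdhb, -0.06 for Uqcrfs1, -0.14 for Uqcrc1, -0.13 for Uqcrc2, -0.06 for Cox4i1, -0.08 for Cox5a, -0.07 for Atp5b and -0.10 for Atp5a1. None of these passed (edgeR, adjusted p of 0.212 or more each).

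The c subunit of the synthase forms the ring that turns as protons pass. Its 3 genes, Atp5g1, Atp5g2 and Atp5g3, encode the same mature protein behind different import signals, so their shares of the c subunit counts can be set side by side within each library. Over all libraries Atp5g3 made up 63.2%, Atp5g1 20.7% and Atp5g2 16.1% of 73471 counts. The share of Atp5g1 was 21.4% and 21.9% in MLL4 het HFD, 22.2% and 24.6% in MLL4 het chow, 17.8% and 18.1% in wild-type HFD and 20.3% and 20.8% in wild-type chow libraries. It was higher in every MLL4 het library than in every wild-type library, by 3.28 percentage points on average. Within each genotype it was lower in both HFD than in both chow libraries, with a mean difference of -2.20 percentage points. The exact 2-sided permutation p was 0.0556 for each, which is the smallest the 36 label sets can give, so the design cannot reach 0.05. The share of Atp5g3 ran the opposite way, at 61.9% and 61.1% in MLL4 het HFD, 61.6% and 58.9% in MLL4 het chow, 66.8% and 66.0% in wild-type HFD and 64.1% and 63.2% in wild-type chow libraries. Its mean difference was -4.13 points between MLL4 het and wild-type libraries (exact permutation p = 0.0556) and 2.04 points between HFD and chow libraries (exact permutation p = 0.111). Atp5g2 differed by 0.85 points between the genotypes (exact permutation p = 0.0556) and by 0.16 points between the diets (exact permutation p = 0.556). The shares of 1 library sum to the whole, so these 6 tests are not independent. With Benjamini-Hochberg adjustment over them the permutation p of 0.0556 becomes 0.0833, and that of 0.111 becomes 0.133. These shares were chosen for description after the values of the genes had been seen. Atp5g2 has 2 pseudogene copies and a further copy, Gm10175, of at least 95% identity, so its counts are uncertain. For Atp5g1 the search for copies used an mRNA of 4715 nt, 7.9 times as long as its shortest RefSeq mRNA. A copy of the short form could not reach the limit of 50%, so copies of Atp5g1 are not excluded.

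**Figure D5:**
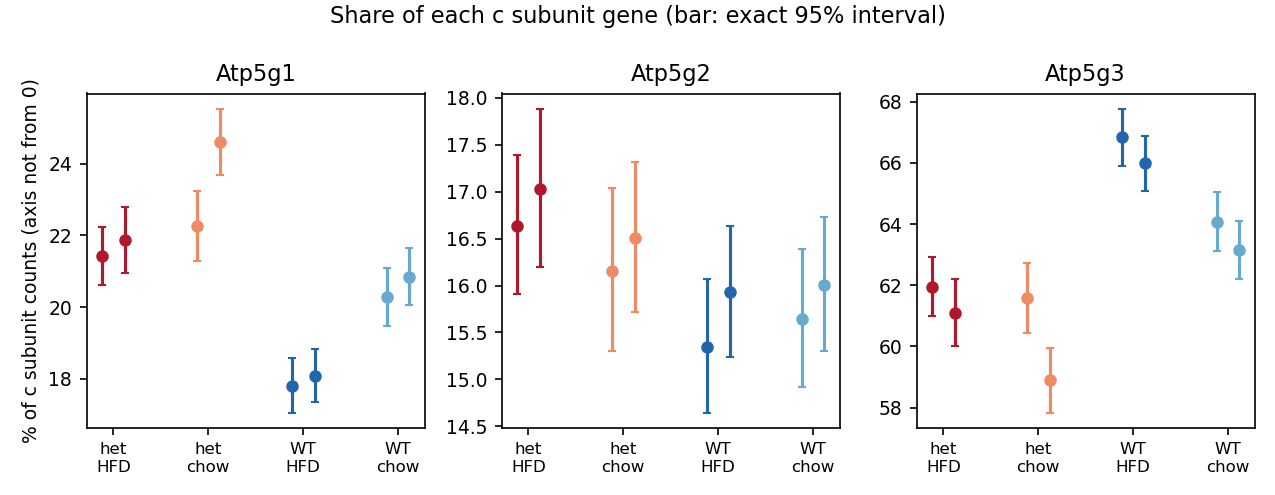
Share of each c subunit gene in the counts of all 3 (y axis, in percent, not from 0) in each library of the 4 groups (x axis, het for MLL4 het and WT for wild-type), with exact 95% binomial intervals that cover counting error only. The share of Atp5g1 is highest in the MLL4 het libraries (21.4 to 24.6%) and lowest in wild-type HFD (17.8 and 18.1%), and that of Atp5g3 is the reverse.

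The promoters of these 3 genes are shown because the genes make 1 protein and their shares of the c subunit counts were described above. Each is 300 bases from RefSeq on the minus strand of GRCm38.p6, at chr11:96075582-96075881 for Atp5g1, chr15:102670998-102671297 for Atp5g2 and chr2:73911277-73911576 for Atp5g3, with matches to the NRF1, ETS and YY1 cores in capitals.
Atp5g1 promoter: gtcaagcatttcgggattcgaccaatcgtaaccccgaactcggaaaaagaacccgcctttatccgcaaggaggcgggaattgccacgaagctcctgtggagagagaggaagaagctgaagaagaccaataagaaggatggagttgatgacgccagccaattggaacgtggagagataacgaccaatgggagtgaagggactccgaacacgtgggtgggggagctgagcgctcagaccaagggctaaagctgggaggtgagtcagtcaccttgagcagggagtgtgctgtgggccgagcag
Atp5g2 promoter: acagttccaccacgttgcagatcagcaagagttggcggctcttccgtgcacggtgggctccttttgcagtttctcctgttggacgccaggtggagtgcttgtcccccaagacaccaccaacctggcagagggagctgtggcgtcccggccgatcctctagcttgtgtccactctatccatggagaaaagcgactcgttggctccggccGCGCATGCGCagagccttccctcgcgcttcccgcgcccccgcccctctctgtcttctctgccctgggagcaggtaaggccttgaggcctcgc
Atp5g3 promoter: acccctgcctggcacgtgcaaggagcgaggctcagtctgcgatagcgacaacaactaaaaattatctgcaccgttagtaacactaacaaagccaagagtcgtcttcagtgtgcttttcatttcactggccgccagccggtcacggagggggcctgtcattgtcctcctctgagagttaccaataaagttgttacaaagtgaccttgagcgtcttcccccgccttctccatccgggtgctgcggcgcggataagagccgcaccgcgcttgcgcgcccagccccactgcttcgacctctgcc
Atp5g2 alone holds an NRF1 core, read on both strands as the overlapping letters GCGCATGCGC, and the windows of Atp5g1 and Atp5g3 hold none of the 3 cores. This says only that these letters are not in these windows.

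Promoters of the subunit genes as a set held some of the motifs known from mitochondrial genes more often than promoters in general. RefSeq gave a promoter for 66 of the 81 subunit genes, in 71 windows of 300 bases, and the motifs were searched on both strands. The NRF1 core GCATGCGC was in 14.1% of these windows and in 3.52% of the 21263 windows of all protein-coding genes. The ETS core CCGGAAG, recognised by GABP, was in 22.5% and 11.6%, and the YY1 core AAGATGGC in 14.1% and 3.05%. Of the 10 genes with the YY1 core, 7 belonged to complex I, where its first base lay between 23 and 39 bases after the start. These letters contain an ATG, and whether they lie at the start of translation was not looked up. The GC box GGGCGG was in 38.0% of subunit windows and 46.2% of all windows, the E-box CACGTG in 9.86% and 7.84%, and the CCAAT box in 42.3% and 38.2%. Each motif was counted on its own, and motifs may overlap in a window. The windows belong to genes picked as 1 family, so these shares are a description.

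The test of the difference between the diet responses of the 2 genotypes called 0 of 79 members by edgeR and by DESeq2, and 0% of all tested rows. At an unadjusted p under 0.05 it gave 0 subunit genes in either direction, beside 382 higher and 518 lower of all 12593 tested rows. The median of this difference over the subunit genes, MLL4 het minus wild-type, was 0.08 on the log2 scale, with 64 of 75 estimates above 0, and -0.0078 without library 3. Over all tested rows the median was -0.02, with 5932 of 12593 above 0. It was 0.05 in the shortest length class. Over the cytosolic ribosome genes it was 0.24, with 75 of 76 above 0. The largest estimate of a subunit gene was that of Ndufb7, an accessory subunit of the membrane arm, at 0.32 ± 0.17 (edgeR, adjusted p = 0.702). The 95% interval lay within 1.5-fold for 68 of the 75 genes.

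The 4 rows that matched by symbol but were not counted as subunits were tested in the same way. Cox4nb (Emc8, of a membrane insertion complex of the endoplasmic reticulum) stood at 20.5 and 20.3 CPM in MLL4 het HFD, 20.7 and 21.1 CPM in MLL4 het chow, 21.8 and 23.3 CPM in wild-type HFD and 19.5 and 19.5 CPM in wild-type chow libraries. Cox7a2l lay between 72.4 and 81.4 CPM in all libraries. None of these 4 was called in any comparison.

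Lists of genes that build, regulate or supply the complexes were set beside the subunits. They were chosen with earlier results of the data known. Of 43 tested assembly factors, HFD against chow averaged over genotypes called 0, against 10.4% of all tested rows. Their median log2 difference was 0.11 with 35 of 43 above 0, and that of the subunits was 0.04, or -0.0059 without library 3 and 0.059 without library 4. Of 20 tested regulators of mitochondrial biogenesis the same comparison called 2, both higher, a share near the 10.4% of all tested rows. Esrra, the nuclear receptor that drives many subunit genes together with PGC-1, stood at 26.9 and 25.1 CPM in MLL4 het HFD against 18.6 and 20.5 CPM in MLL4 het chow libraries, and at 21.7 and 24.1 CPM in wild-type HFD against 17.5 and 15.8 CPM in wild-type chow libraries. It rose by a log2 difference of 0.44 ± 0.08 (edgeR, adjusted p = 0.0102), and all 4 HFD libraries lay above all 4 chow libraries. Ppara, the receptor that drives fatty acid oxidation, rose by 0.77 ± 0.17 (adjusted p = 0.0208). The coactivator Ppargc1b had a difference of 0.60 ± 0.19 (adjusted p = 0.0800), and Ppargc1a had -0.08 ± 0.22 (adjusted p = 0.859). Nrf1 (-0.06), Gabpa (-0.08) and Tfam (0.09), which act on subunit promoters or on mitochondrial DNA, did not pass either, with an adjusted p of 0.352 or more each. Gabpa and Atp5j overlap on opposite strands by 123 bases, so their reads may not be fully told apart if counting ignored the strand.

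Gpd2, the mitochondrial glycerol phosphate dehydrogenase that passes electrons to ubiquinone, stood at 76.4 and 58.4 CPM in MLL4 het HFD against 40.7 and 31.8 CPM in MLL4 het chow libraries, and at 70.5 and 77.8 CPM in wild-type HFD against 30.0 and 31.1 CPM in wild-type chow libraries. It rose with HFD in both genotypes, by a log2 difference of 0.90 ± 0.15 in MLL4 het (edgeR, adjusted p = 0.0238) and 1.28 ± 0.15 in wild-type livers (adjusted p = 0.00374). Of 25 tested genes for mobile carriers and coenzyme Q synthesis, Coq10b, a coenzyme Q binding protein, was the other one called in the average over genotypes (0.69 ± 0.13, adjusted p = 0.0143), and 2 of 25 is a share near the 10.4% of all tested rows. Of 18 tested genes of the tricarboxylic acid cycle list, 2 rose and 1 fell with HFD averaged over genotypes, beside 5.56% higher and 4.84% lower of all tested rows. Pdhb of the pyruvate dehydrogenase complex rose by 0.51 (adjusted p = 0.00522) and Suclg1 of succinyl-CoA ligase by 0.23 (adjusted p = 0.0335). Idh2, the mitochondrial NADP-dependent isocitrate dehydrogenase, fell by 0.49 on the log2 scale (adjusted p = 0.00466), to 57.3 and 53.7 CPM in MLL4 het HFD against 73.1 and 86.6 CPM in MLL4 het chow libraries, and to 77.3 and 70.3 CPM in wild-type HFD against 104 and 98.6 CPM in wild-type chow libraries.

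The same list held 3 genes that fell in MLL4 het against wild-type livers averaged over diets, beside 2.03% lower of all tested rows. Idh2 had a log2 difference of -0.38 (edgeR, adjusted p = 0.0347), Suclg1 of -0.28 (adjusted p = 0.0340) and Suclg2 of -0.31 (adjusted p = 0.0437), and 16 of its 18 estimates were below 0. Of the 43 assembly factors 1 was called, beside 3.24% of all tested rows. This was Cox19, needed for copper delivery to complex IV, which fell by 0.49 ± 0.08 (adjusted p = 0.0220). It stood at 19.2 and 17.6 CPM in MLL4 het HFD against 25.3 and 26.1 CPM in wild-type HFD libraries, and at 15.5 and 16.7 CPM in MLL4 het chow against 20.97 and 24.4 CPM in wild-type chow libraries, with no overlap on either diet. No regulator and none of 75 mitochondrial ribosome genes was called between the genotypes in that average. Of 76 tested cytosolic ribosome genes, 15 fell with HFD averaged over genotypes, beside 4.84% lower of all tested rows, and 7 fell in wild-type livers, beside 2.22% lower. Of the 75 subunit genes 0 fell in either comparison.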

How the data were processed

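The authors deposited whole-number read counts per gene symbol for all 8 libraries, not normalized, as the values show. The build mm9 and the tools CASAVA, TopHat2, HTSeq and DESeq are named per the submitters' processing notes, without versions or settings, and the labels do not say whether reads were counted by strand or how reads with several matches were treated. Per the labels' protocols, RNA was extracted with RNeasy and sequenced from TruSeq libraries on an Illumina HiSeq instrument.

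Counts were tested with edgeR 4.0.16 in R 4.3.3. The function filterByExpr kept 12593 rows, libraries were scaled with TMM, and all 8 libraries entered 1 quasi-likelihood fit with a mean for each of the 4 groups, 4 residual degrees of freedom and 4.77 prior ones (common biological coefficient of variation 11.2%). Benjamini-Hochberg adjustment of the 2-sided p-values ran over every tested row, and an adjusted p under 0.05 was called. SEs were derived from log2 change and F statistic, so they and the intervals are approximate. The procedure was tested on simulated data. Alternatives were DESeq2 1.42.0, its size factors, no filter, the 10 highest rows left out of library sizes, the compared libraries alone, and each library left out.

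Levels per length used GENCODE M21 mRNAs, leaving out genes whose RefSeq mRNAs differ over 1.5-fold in length. Copies were searched with blastn 2.17.0, using 1 long mRNA per gene, so copies of much shorter forms can be missed. Medians by library used log2(CPM + 1), with a pseudocount of 1.

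Members, gene lists and tests were chosen with earlier results of these data known. The genes named are taken from the called members, the members of smallest p in each complex and a fixed panel of core and tissue-specific subunits, and from other lists up to 4 called genes and 6 regulators. Sequences are RefSeq promoters of GRCm38.p6.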

Additional observations from a re-analysis of the deposited data

Results flagged for a closer look

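Of the 79 tested members, 5 were singled out because both HFD libraries lay on one side of both chow libraries in one genotype and on the other side in the other. The share of all tested rows with this pattern was not counted, so the number 5 cannot be read as a trait of these genes. The difference of the diet responses, MLL4 het minus wild-type on the log2 scale, was 0.26 for Atp5d (edgeR, adjusted p = 0.717), 0.18 for Atp5h (adjusted p = 0.751), 0.11 for Ndufb11 (adjusted p = 0.833), 0.15 for Cox7a2l (adjusted p = 0.776) and -0.24 for Cox4nb (adjusted p = 0.715). None passed. Atp5d, the delta subunit of the synthase head, stood at 144.5 and 149 CPM in MLL4 het HFD against 117 and 144.0 CPM in MLL4 het chow libraries, and at 141 and 146 CPM in wild-type HFD against 156 and 150.2 CPM in wild-type chow libraries. Atp5h, of the peripheral stalk, stood at 133.0 and 139.7 CPM in MLL4 het HFD against 122 and 132.5 CPM in MLL4 het chow libraries, and at 128 and 137 CPM in wild-type HFD against 139.9 and 142 CPM in wild-type chow libraries. For Cox4nb the genotype difference, too, had opposite directions on the 2 diets, with the same value of -0.24.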

How the results depend on the processing

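No paired analysis was possible because the library numbers run from 1 to 8 and the groups share none. The count of called members was also run under the alternatives named above. For HFD against chow averaged over genotypes, leaving out 1 library gave 0 to 2 calls (Atp5g1 and Ndufa8 without library 3). It gave 0 to 1 for the same comparison in MLL4 het (Ndufa8 without library 4) and in wild-type livers (Ndufa8 without library 3), 0 to 4 for MLL4 het against wild-type averaged over diets, and 0 to 1 on chow (Cox7a2 without library 4). Fitting the compared libraries alone gave 1 call for HFD against chow in wild-type livers, Ndufa8. No called value changed sign. Leaving out 1 library moved the median log2 difference of the subunit genes to between -0.24 and -0.087 for MLL4 het against wild-type on chow, between -0.00045 and 0.14 for HFD against chow in MLL4 het livers, between -0.12 and -0.039 for MLL4 het against wild-type on HFD, between -0.0059 and 0.059 for HFD against chow averaged over genotypes, and between -0.0078 and 0.17 for the difference of the 2 diet responses. Depth limits Cox7a1, Ndufa4l2 and the 6 rows that were not tested, each of which had under 2 CPM in every library. The cause of these moves was not tested.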
